A study of Mus musculus with 21 samples.

Results

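The clustered histone genes of the mouse were described across 21 liver RNA-seq libraries. Members were the protein-coding genes whose symbols begin with Hist1h, Hist2h, Hist3h or Hist4h in the GENCODE M21 annotation of GRCm38, with no measured value in the choice. This gave 67 members among the 52636 gene IDs of the count table. Of 70 matching symbols, 3 were pseudogenes and were left out. The livers came from wild-type mice in 3 groups. The chow group held 5 livers taken after 8 weeks on normal chow, which the labels call week 0. The other groups held 8 livers each, taken after 8 or after 16 weeks of CDA-HFD, a high-fat diet without choline and with defined amino acids that is fed to mice to bring on steatohepatitis and fibrosis. No chow liver was taken beside the 16-week livers, so the age of the mice and the weeks of diet cannot be told apart there. Because the labels place the chow group at week 0, it is also not known whether the chow mice were as old as the 8-week CDA-HFD mice. The labels give each library its own number but do not say that the replicates are separate animals, so p-values measure only the spread between these libraries.

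Histones package DNA: the core histones H2A, H2B, H3 and H4 form the nucleosome, and the linker histone H1 binds where DNA enters and leaves it. Most clustered histone genes are transcribed while a cell copies its DNA, and their messenger RNAs end in a conserved stem-loop in place of a poly(A) tail. The stem-loop is bound by Slbp, the stem-loop binding protein, and the end is cut by a complex that holds the U7 small nuclear RNA. Some clustered genes also yield longer, polyadenylated transcripts in cells that do not divide, and most adult hepatocytes do not divide.

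The members fell into 6 H1, 18 H2A, 18 H2B, 12 H3 and 13 H4 genes. On chromosome 13, the Hist1 cluster held 54 of them (GRCm38, 21715763 to 23934851). The Hist2 cluster on chromosome 3 held 10, the Hist3 cluster on chromosome 11 held 2, and Hist4h4 on chromosome 6 stood alone. A 16-base match to the histone stem-loop pattern was sought on the transcript strand within 300 bases after the stop codon. It was found in 46 members, between 21 and 58 bases after the stop codon (median 31). Among models with at least 30 bases after the stop codon, 46 of 52 members (88.5%) and 8 of 20794 other protein-coding genes (0.0385%) held a match.

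The stem-loops of 7 members that the results turn on are given below from the GENCODE M21 transcripts, 5′ to 3′, because the stem letters of the H4 genes shown differ from those of the other classes shown. Capitals mark the 16 bases of the match. The first sequence, of Hist1h1c, lies at chr13:23739507-23739532 on the plus strand of GRCm38, and that of Hist1h4h lies at chr13:23531453-23531478 on the plus strand. Those of Hist1h2ac (chr13:23683472-23683497), Hist2h3c2 (chr3:96238480-96238505) and Hist1h4i (chr13:22040961-22040986) lie on the minus strand. Those of Hist3h2a (chr11:58955167-58955192) and Hist1h4j (chr13:21735432-21735457) lie on the plus strand.
Hist1h1c: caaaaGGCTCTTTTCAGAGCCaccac
Hist1h2ac: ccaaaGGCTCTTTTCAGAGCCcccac
Hist3h2a: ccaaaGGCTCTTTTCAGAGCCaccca
Hist2h3c2: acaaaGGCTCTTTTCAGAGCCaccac
Hist1h4h: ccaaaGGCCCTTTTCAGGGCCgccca
Hist1h4i: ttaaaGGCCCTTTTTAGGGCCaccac
Hist1h4j: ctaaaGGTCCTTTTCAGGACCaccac

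The sequence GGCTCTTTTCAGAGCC was the commonest, in 26 members (3 H1, 10 H2A, 8 H2B and 5 H3 genes). The form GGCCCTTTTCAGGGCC was found in 7 members, all of them H4 genes. The form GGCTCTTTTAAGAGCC was found in 6 members of the H1, H2B and H3 classes.

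How much of a member's sequence is its own differed widely. The measure was the share of a gene's 50-base stretches that occur in the annotated transcripts of no other gene. It was under 25% in 19 members, of which 15 had no count in any library and 0 had enough counts for a test. It was over 75% in 18 members, of which 9 were tested. How reads that match several histone genes were counted is not given in the sources used here, so a count of 0 does not show that a gene was silent.

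Members also differed in the length of the annotated transcript after the stem-loop. The model ran at least 100 bases past the stem-loop in 23 members, and these held 64.1% of all member counts and 12 of the 15 members tested. Of member counts, 57.6% were from Hist1h1c alone. In another 23 members the model ended within 100 bases of the stem-loop. Those held 0.405% of member counts, and Hist1h4h was the 1 member among them with enough counts for a test. The median share of 50-base stretches found in no other gene was 40.6% in them and 75.4% in the longer models. Length and uniqueness were thus not told apart. In 6 members the model continued after the stop codon without a match, and these held 35.5% of member counts, nearly all from Hist1h2bc and Hist2h2be. The remaining 15 members have fewer than 30 annotated bases after the stop codon and held 0.0402% of member counts.

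**Figure D1:**
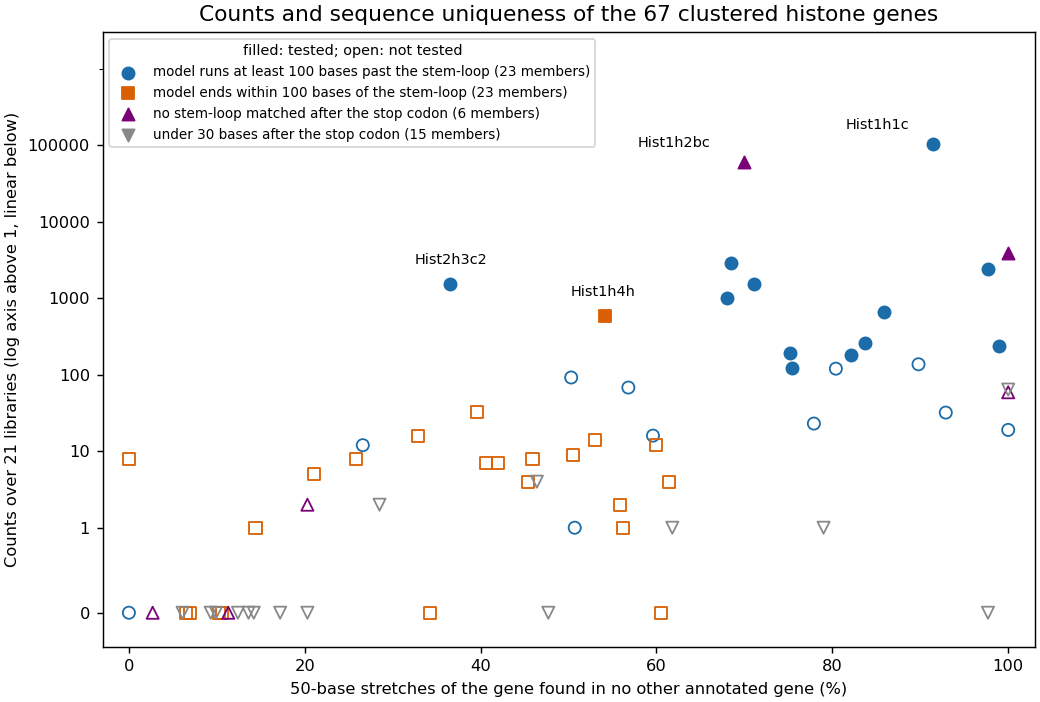
Counts over the 21 libraries (vertical axis, logarithmic above 1) of the 67 members against the percent of their 50-base stretches found in no other annotated gene (horizontal axis). Symbols give the kind of transcript model, filled symbols are the 15 members tested, and the 19 members with a share under 25% lie at the left with 16 counts in all.

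Member counts were scarce beside the depth of the libraries. Total counts ran from 29037525 to 48901145 per library, and the members held 179051 counts over all 21, which is 0.0211% of all counts. Between 22 and 33 members had a count in a library. Over all libraries 19 members had no count, 24 had 1 to 20 counts and 9 had more than 20 counts without passing the filter on low counts. The remaining 15 passed it and held 99.6% of member counts. They were 3 H1, 2 H2A, 4 H2B, 2 H3 and 4 H4 genes. The filter can keep a gene through the group in which it is high, so counts over the 15 are not counts over the clustered histone genes.

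Transcripts of other tissues and 1 library that stood apart bear on every comparison. Hepatocyte markers, Alb among them, summed to between 86100 and 410000 CPM in the 21 libraries, where CPM stands for counts scaled to a common library size. Leukocyte markers summed to 129 to 211 CPM on chow, 546 to 5330 CPM at 8 weeks and 1400 to 2480 CPM at 16 weeks, and 11 of 12 were higher than on chow at both times. Squamous epithelium markers summed to 0.607 to 0.889 CPM on chow, 2.65 to 2010 CPM at 8 weeks and 6.65 to 275 CPM at 16 weeks. Of those 10 genes, Krt13, Krt5, Krt6a, Krt15 and Sprr3 had no count in any chow library. The highest sum was in 8-week replicate 3, which also held 2750 CPM of skeletal muscle markers. Exocrine pancreas markers reached 9130 CPM in 8-week replicate 4 and 424 CPM in replicate 5. The part of these tissues in the histone results was not tested beyond the fits without these libraries. In such bulk RNA, a change in the number of cells of a type and a change in the RNA per cell cannot be told apart.

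The linker histone gene Hist1h1c (ENSMUSG00000036181, chromosome 13, 23738808 to 23740367) and the H2B gene Hist1h2bc (ENSMUSG00000018102, chromosome 13, 23684199 to 23692908) together held 90.9% of member counts. Per kilobase of exon, Hist1h1c had a mean level of 72.1 CPM and Hist1h2bc of 62.2 CPM over the 21 libraries. The next members per kilobase were Hist1h4i with 2.45, Hist1h4h with 1.93, Hist2h3c2 with 1.74, Hist2h2be with 1.68 and Hist3h2a with 1.53 CPM. Over the 20 libraries without 8-week replicate 3, Hist1h4h had 1.09 CPM per kilobase, below the other 4. The lowest of the 15 per kilobase was Hist1h2be, an H2B gene with 0.0666 CPM. Its length, 4446 bases, is that of all its annotated exons, and whether all are expressed was not tested. Without division by length the lowest was Hist1h4j with 0.135 CPM, and Hist1h2be had 0.296 CPM. Per kilobase, H1f0, a linker histone gene outside the clusters, had 62.9 CPM. H3f3b, a gene of the replication-independent histone H3.3, had 36.4 CPM per kilobase. Among the H2A, H3 and H4 members tested, the highest level per kilobase was thus the 2.45 CPM of Hist1h4i.

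After 8 weeks of CDA-HFD, 8 of the 15 tested members were higher than on chow and 0 were lower. The threshold for a call was 0.05 for the Benjamini-Hochberg adjusted p of edgeR's quasi-likelihood test, and 51.3% of all 17104 genes tested were called in this comparison, 30.8% of them higher and 20.5% lower, as shares of all tested. The share of tested members called was 53.3%, near that background, and all called members were higher. At an unadjusted p under 0.05, 9 members were higher and 0 lower in edgeR. DESeq2's Wald test, which tested 27 members and called 43.9% of all genes, called 8 higher and 0 lower. The median log2 difference of the 15 members was 0.70, against 0.16 for all genes tested. The members called were the H1 genes Hist1h1c and Hist1h1d, the H2A genes Hist3h2a and Hist1h2ac, the H2B gene Hist1h2be, the H3 gene Hist2h3c2 and the H4 genes Hist1h4h and Hist1h4j. All 8 were also called, and higher, without 8-week replicate 3. Fitting the chow and 8-week libraries alone tested 11 members and called 5 of them, all higher, where 41.7% of all genes were called. Of all called genes 60.1% were higher, and 78.3% when libraries were scaled by total counts alone.

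After 16 weeks 6 members were higher than on chow and 1 was lower. Of all genes tested 51.9% were called here, 29.4% higher and 22.5% lower. The median of the 15 members was 0.67 on the log2 scale, against 0.03 for all genes. DESeq2's Wald test, which tested 34 members and called 45.5% of all genes, called 7 higher and 1 lower. The median of those 34 was 0.30, against 0.04 for all genes. Scaling the libraries by total counts alone gave 11 members higher and 0 lower with a median of 1.21, while the median of all genes moved to 0.56 and the share of higher genes among all called from 56.6% to 89.5%. The members that were higher were Hist1h1c, Hist1h1d, Hist3h2a, Hist1h2ac, Hist1h2be and Hist2h3c2, and the member that was lower was Hist1h2bc. Both comparisons use the same 5 chow libraries.

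Between 8 and 16 weeks 0 members were higher and 1 was lower, Hist1h2bc, in edgeR, and at an unadjusted p under 0.05 the counts were also 0 and 1. Of all genes tested 21.6% were called, 10.6% higher and 11.0% lower. The median of the members was -0.21, against 0.00 for all genes. DESeq2's Wald test, with 24 members tested, also gave 0 higher and 1 lower. Of all called genes 49.0% were higher here, and 94.8% under total counts alone.

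**Figure D2:**
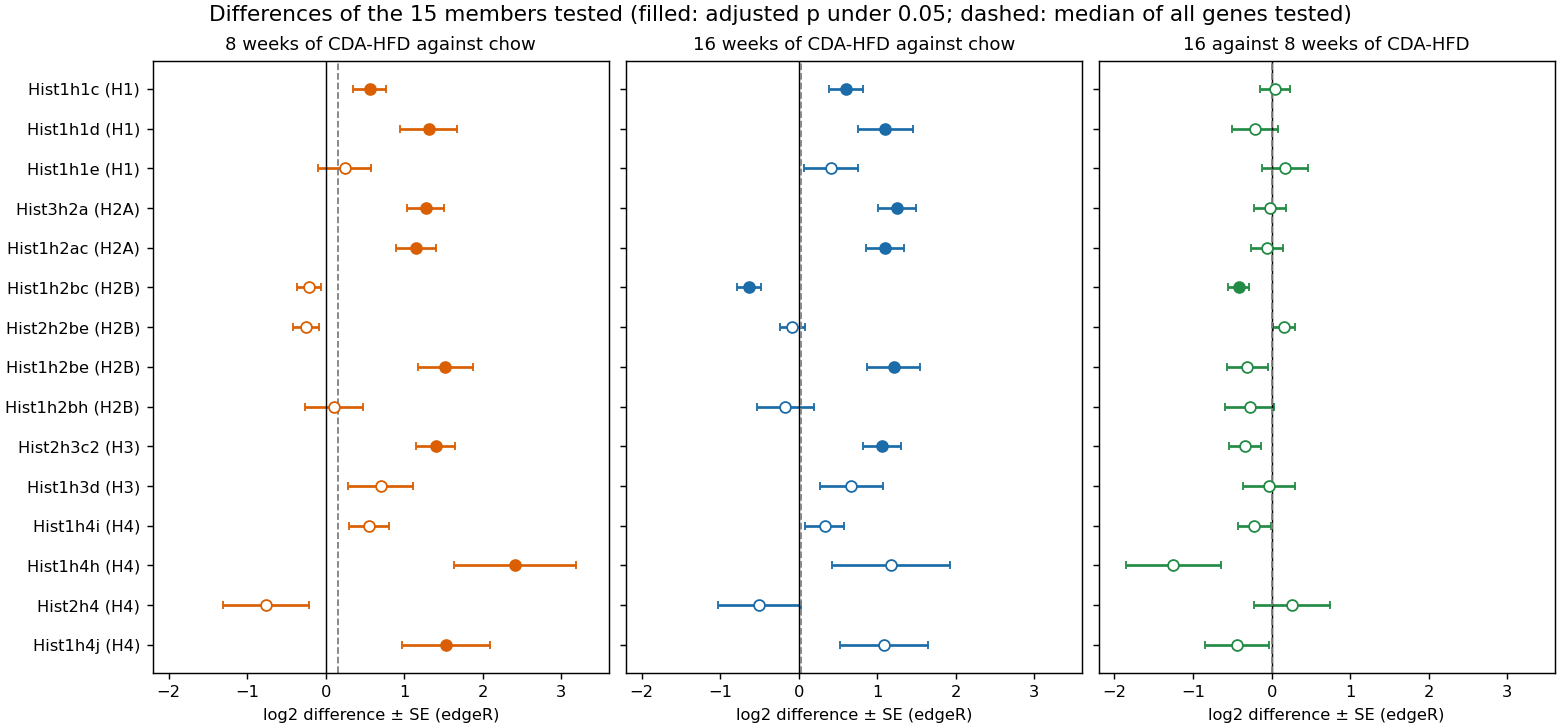
The log2 differences (horizontal axis, ± SE from edgeR) of the 15 tested members in the 3 comparisons, ordered by histone class. Filled points have an adjusted p under 0.05 and the dashed line is the median of all genes; Hist1h2bc alone lies below 0 with a call, at -0.63 in the middle panel and -0.42 in the right panel, the second of which was 0.02 when libraries were scaled by total counts alone.

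Among the linker histones, Hist1h1c had 48.5, 84.9, 89.7, 81.9 and 104.0 CPM in chow replicates 1 to 5. At 8 weeks its lowest, median and highest levels were 48.4, 128.0 and 161.0 CPM, and at 16 weeks they were 105.0, 122.0 and 148.0 CPM. All 16-week libraries thus lay above all chow libraries, while at 8 weeks replicate 3 lay below them and replicate 1, at 97.9 CPM, lay within their range. Hist1h1c rose 1.47-fold at 8 weeks (log2 difference 0.56 ± 0.21 SE, edgeR adjusted p = 0.0365) and 1.51-fold at 16 weeks (0.60 ± 0.22, edgeR adjusted p = 0.0248). The 8-week call was lost when any 1 of chow replicates 1 to 4 or 8-week replicates 2, 4, 5 and 8 was left out, with edgeR adjusted p between 0.0504 and 0.117. The 16-week call was lost without chow replicate 1, the lowest chow library (0.45, edgeR adjusted p = 0.0881).

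Hist1h1d (ENSMUSG00000052565, chromosome 13, 23553262 to 23560686), another linker histone gene, had 0.735, 1.06, 0.438, 1.33 and 2.99 CPM on chow. Its levels ran from 1.68 to 5.0 CPM at 8 weeks (median 3.38) and from 2.02 to 4.01 CPM at 16 weeks (median 2.81). Only chow replicate 5, with 2.99 CPM, overlapped the CDA-HFD groups, and that library also held 419 CPM of skeletal muscle markers. In the 8-week group, replicate 6 held 363 CPM of these markers and 5.0 CPM of Hist1h1d. Replicate 3 held 2750 CPM of the markers and 2.16 CPM of Hist1h1d. Whether the markers and Hist1h1d go together was not tested. The rise of Hist1h1d was 2.48-fold at 8 weeks (log2 1.31 ± 0.36 SE, edgeR adjusted p = 0.00466) and 2.14-fold at 16 weeks (log2 1.10 ± 0.35, edgeR adjusted p = 0.0122). Hist1h1e, the third tested linker histone gene, was not called at either time (0.24 and 0.41 on the log2 scale, edgeR adjusted p = 0.569 and 0.328), and its exons overlap those of Hist1h2be on the same strand, so reads there cannot be assigned with certainty.

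Both tested H2A genes rose. Hist3h2a (ENSMUSG00000078851, chromosome 11, 58954685 to 58956830) had 1.54, 1.41, 1.79, 1.56 and 1.64 CPM on chow. It had a lowest, median and highest level of 2.38, 3.13 and 6.95 CPM at 8 weeks and of 3.08, 3.73 and 4.81 CPM at 16 weeks. Neither CDA-HFD group overlapped the chow group. The difference was 2.41-fold at 8 weeks (log2 1.27 ± 0.24 SE, edgeR adjusted p = 0.000244) and 2.37-fold at 16 weeks (log2 1.25 ± 0.24, edgeR adjusted p = 0.000183). An exon of Trim17 overlaps Hist3h2a on the same strand, so its counts may include reads of that gene.

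Hist1h2ac (ENSMUSG00000069270, chromosome 13, 23681467 to 23683948) stood at a lower level, with 0.257, 0.315, 0.371, 0.492 and 0.438 CPM on chow. At 8 weeks the lowest, median and highest values were 0.348, 0.87 and 1.12 CPM, and at 16 weeks 0.627, 0.838 and 0.918 CPM. The 16-week libraries all lay above the chow libraries, and at 8 weeks replicate 3 alone lay within the chow range. Hist1h2ac rose 2.23-fold at 8 weeks (log2 1.15 ± 0.25 SE, edgeR adjusted p = 0.000676) and 2.14-fold at 16 weeks (log2 1.10 ± 0.24, edgeR adjusted p = 0.0007).

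**Figure D3:**
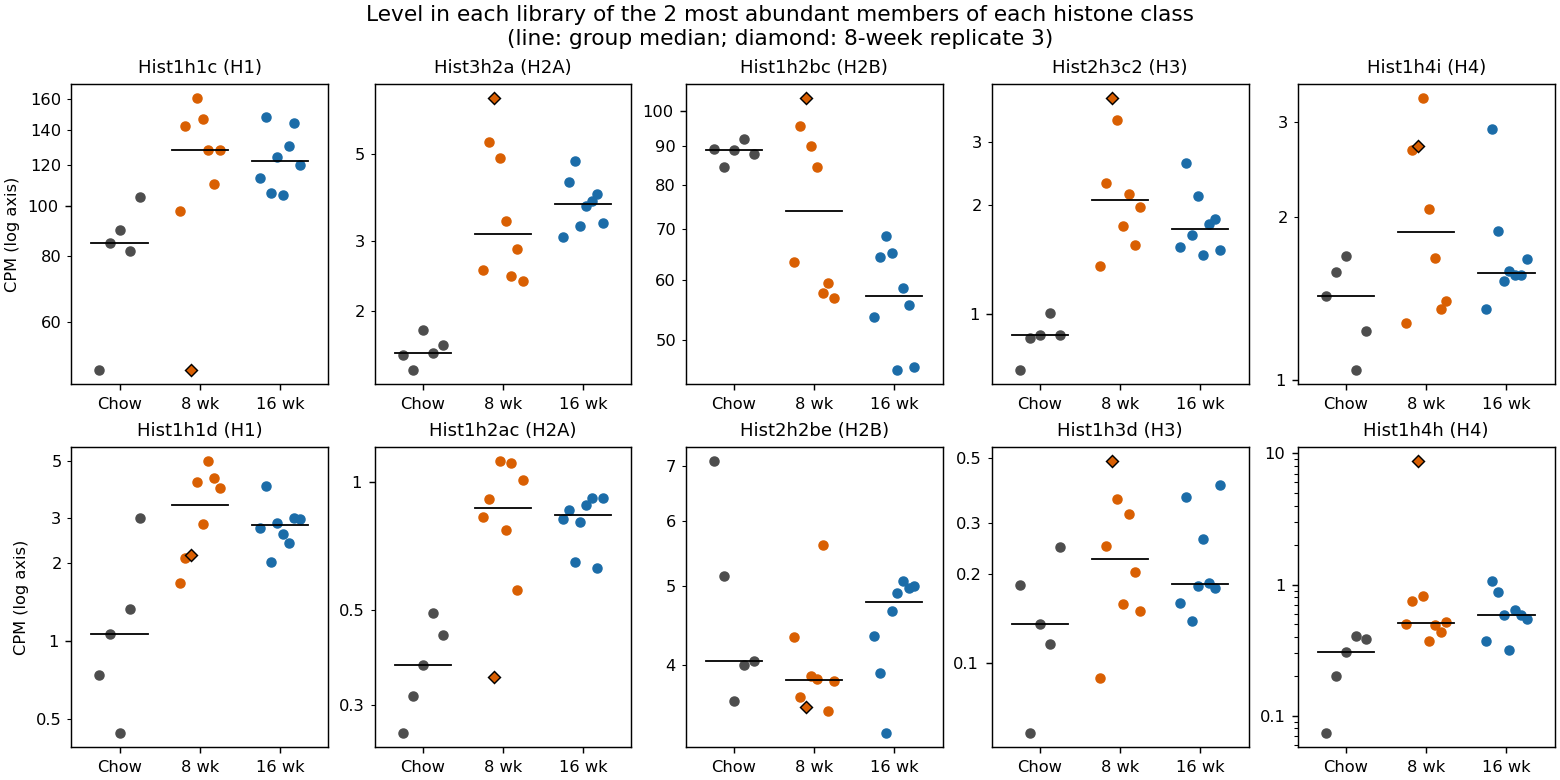
Level in CPM (vertical axis, logarithmic) in each library of the 2 most abundant members of each histone class, by group, with the group median as a line and 8-week replicate 3 as a diamond. In Hist3h2a and Hist2h3c2 every CDA-HFD library lies above every chow library, and in Hist1h2bc every 16-week library, at 45.6 to 68.4 CPM, lies below every chow library. Scaled by total counts alone, the chow and 16-week levels of Hist1h2bc overlap.

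The H2B genes did not move as 1 group. Hist1h2bc had 89.1, 84.4, 88.8, 91.7 and 87.7 CPM on chow, a narrow range. At 8 weeks it had 84.4 to 104.0 CPM in replicates 2, 3, 4 and 5 and 56.7 to 63.3 CPM in replicates 1, 6, 7 and 8, with no library between. This split depends on the scaling, whose factor was 0.496 in replicate 3 and 0.884 to 1.17 in the rest of the group. Scaled by total counts alone, replicate 3 was the group's lowest and the 8-week libraries did not split in this way. At 16 weeks the lowest, median and highest levels of Hist1h2bc were 45.6, 57.0 and 68.4 CPM, all under the chow range. Hist1h2bc was not called at 8 weeks (log2 -0.21 ± 0.15 SE, edgeR adjusted p = 0.247), though without 8-week replicates 3, 4 and 5 together it was lower (log2 -0.42, edgeR adjusted p = 0.0193). At 16 weeks it fell by 0.63 on the log2 scale (± 0.15 SE, edgeR adjusted p = 0.00142), but scaling by total counts alone gave -0.10 with an edgeR adjusted p of 0.557.

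From 8 to 16 weeks Hist1h2bc differed by -0.42 on the log2 scale (± 0.13 SE, edgeR adjusted p = 0.0321). The groups overlapped, and scaling by total counts alone turned the difference to 0.02 (edgeR adjusted p = 0.905). The call was lost when any 1 of 8-week replicates 2, 3, 4 and 5 or 16-week replicates 1, 5, 6, 7 and 8 was left out, with edgeR adjusted p from 0.051 to 0.0714. It was -0.21 (edgeR adjusted p = 0.286) without 8-week replicates 3, 4 and 5 together.

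Of the other H2B genes, Hist2h2be (ENSMUSG00000068854, chromosome 3, 96221119 to 96223738) was not called in any comparison. Its level was 4.78 ± 1.41 CPM (SD, n = 5) on chow, 4.02 ± 0.687 CPM (SD, n = 8) at 8 weeks and 4.51 ± 0.629 CPM (SD, n = 8) at 16 weeks. Hist1h2be (ENSMUSG00000047246) had 0.147, 0.143, 0.169, 0.0869 and 0.11 CPM on chow, 0.164 to 0.765 CPM at 8 weeks and 0.187 to 0.529 CPM at 16 weeks. The chow and 16-week libraries did not overlap. Hist1h2be rose 2.88-fold at 8 weeks (edgeR adjusted p = 0.00118) and 2.32-fold at 16 weeks (edgeR adjusted p = 0.005), at a level under 1 CPM and with the overlap with Hist1h1e described above. Hist1h2bh was not called in any comparison.

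Of the H3 genes, Hist2h3c2 (ENSMUSG00000081058, chromosome 3, 96238108 to 96239127) had 0.699, 0.86, 0.877, 1.01 and 0.876 CPM on chow. Its lowest, median and highest levels were 1.36, 2.07 and 3.96 CPM at 8 weeks and 1.46, 1.71 and 2.61 CPM at 16 weeks, with no overlap with chow at either time. The rise was 2.64-fold at 8 weeks (log2 1.40 ± 0.25 SE, edgeR adjusted p = 0.000105) and 2.08-fold at 16 weeks (log2 1.06 ± 0.24, edgeR adjusted p = 0.00095). Only 36.5% of its 50-base stretches are its own, the lowest share among the 15, and its neighbour Hist2h3c1, with a share of 0.0%, had no count in any library, so its counts may include reads of other H3 genes. Hist1h3d, at 0.148 ± 0.0714 CPM (SD, n = 5) on chow, was not called at 8 weeks (log2 0.70) or at 16 weeks (log2 0.67).

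Among H4 genes, Hist1h4h (ENSMUSG00000060981, chromosome 13, 23531050 to 23531519) owed most of the size of its 8-week difference to 1 library. It had 0.0735, 0.201, 0.304, 0.405 and 0.383 CPM on chow, and 8.76 CPM in 8-week replicate 3. The other 7 libraries of the 8-week group had 0.371 to 0.822 CPM, a range that overlaps chow. The difference was 5.32-fold at 8 weeks (log2 2.41 ± 0.78 SE, edgeR adjusted p = 0.0142), and without replicate 3 the log2 difference was 0.97 (edgeR adjusted p = 0.0255). At 16 weeks it had 0.317 to 1.07 CPM and was not called (log2 1.17, edgeR adjusted p = 0.203), but it was called without 8-week replicate 3 (log2 1.16, edgeR adjusted p = 0.00594). Between 8 and 16 weeks the log2 difference of -1.25 became 0.18 without that library, with no call either way.

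Hist1h4i, another H4 gene (ENSMUSG00000060639, chromosome 13, 22040636 to 22041362), had 1.43, 1.58, 1.69, 1.04 and 1.23 CPM on chow, 1.27 to 3.32 CPM at 8 weeks and 1.35 to 2.91 CPM at 16 weeks. These groups overlapped and the gene was not called at either time (log2 0.55 and 0.33, edgeR adjusted p = 0.0677 and 0.275). Hist1h4j, at 0.181 ± 0.0717 CPM (SD, n = 8) at 8 weeks, was called there (log2 1.53 ± 0.56 SE, edgeR adjusted p = 0.0281), and the call was lost without chow replicate 1, 2 or 4 or 8-week replicate 2 (edgeR adjusted p from 0.0518 to 0.0762). Hist2h4 was not called in any comparison.

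The number of members whose groups did not overlap describes the same CPM without a model, and carries the same scaling. At 8 weeks 2 members lay wholly above chow, Hist3h2a and Hist2h3c2, and 0 lay below, where 15.3% of all genes tested lay wholly above and 14.8% wholly below. At 16 weeks 5 members lay wholly above chow and 1 wholly below, against 27.2% and 23.3% of all genes. The 1 below was Hist1h2bc, which overlapped chow when libraries were scaled by total counts alone. From 8 to 16 weeks 0 members lay wholly above or below, against 2.58% of all genes above and 0.509% below. The 5 were Hist1h1c, Hist3h2a, Hist2h3c2, Hist1h2ac and Hist1h2be.

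Sums over each class gather reads that single genes may share, and are given without a test. H2A members summed to 1.86 to 2.26 CPM on chow, 3.42 to 7.65 CPM at 8 weeks and 3.95 to 5.62 CPM at 16 weeks. H3 members summed to 0.919 to 1.22 CPM on chow, 1.5 to 4.73 CPM at 8 weeks and 1.76 to 3.05 CPM at 16 weeks. In both classes every CDA-HFD library lay above every chow library. The H4 sum was 1.94 to 3.27 CPM on chow, 2.31 to 13.4 CPM at 8 weeks and 2.31 to 4.8 CPM at 16 weeks, with overlap. The 13.4 CPM was in 8-week replicate 3, and the next library of that group had 5.36 CPM. The H2B sum, most of it Hist1h2bc, was 89.8 to 96.6 CPM on chow, 61.1 to 109.0 CPM at 8 weeks and 51.2 to 72.0 CPM at 16 weeks. The sum over all 67 members was 152.0 to 207.0 CPM on chow, 176.0 to 276.0 CPM at 8 weeks and 169.0 to 235.0 CPM at 16 weeks, so the groups overlapped.

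The members below the filter were seen only in traces. The 52 members not tested had 792 counts over the 21 libraries, between 21 and 68 in a library. The most frequent were Hist1h4d with 137 counts, Hist1h4c with 120 and Hist1h2bg with 92. In CPM the 52 summed to 0.602 to 0.898 on chow, 0.678 to 3.55 at 8 weeks and 0.637 to 1.19 at 16 weeks. The 3.55 CPM, from 51 counts, was in 8-week replicate 3, whose low scaling factor raises all its CPM. The next library of that group had 1.48 CPM. Hist1h1b, a linker histone gene, had 7 counts over the 5 chow libraries, 25 over the 8-week and 32 over the 16-week libraries. Of the 25, 12 were in 8-week replicate 6. Scaled for depth, its means were 0.0399 CPM on chow, 0.114 CPM at 8 weeks and 0.0694 CPM at 16 weeks. Hist1h1a, another untested linker histone gene, went the other way, with means of 0.126, 0.0816 and 0.0473 CPM. These counts cover few reads per library and were not tested.

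Divergent pairs share the stretch between their starts. In 12 pairs an H2A and an H2B member are transcribed away from each other with starts within 500 bases. Hist1h2ac and Hist1h2bc, 251 bases apart, were the 1 pair with both members tested. The 250 bases before the RefSeq start of Hist1h2ac (GRCm38.p6, chr13:23683960-23684209, minus strand) lie over that stretch. They are given 5′ to 3′ because the 2 genes of the pair changed unequally at 16 weeks. The fall of Hist1h2bc was not called under total counts alone (log2 -0.10, edgeR adjusted p = 0.557). Capitals mark matches on either strand to the CCAAT box, the TATA box letters TATAAA or the letters TTTGCAT.
Hist1h2ac promoter: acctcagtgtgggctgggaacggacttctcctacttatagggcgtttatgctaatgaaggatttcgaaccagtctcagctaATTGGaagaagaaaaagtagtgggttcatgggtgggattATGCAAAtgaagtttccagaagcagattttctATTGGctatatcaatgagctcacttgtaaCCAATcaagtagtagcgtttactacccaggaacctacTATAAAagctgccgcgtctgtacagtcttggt

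This stretch holds CCAAT 1 time on the Hist1h2ac strand and 2 times on the other, TATAAA 1 time on the Hist1h2ac strand and TTTGCAT 1 time on the other strand. RefSeq promoters of 300 bases, from 250 before to 50 after the start, were matched to 62 members. CCAAT was found on either strand in 53 of them (85.5%) and in 37.4% of all 32817 promoters. TATAAA was found in 35 (56.5%, against 13.6% of all promoters) and TTTGCAT, part of the octamer bound by Pou2f1, in 14 (22.6%, against 4.6%). A match is a description of the letters and not of binding.

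Within each library the ratio of Hist1h2ac to Hist1h2bc counts does not depend on how libraries were scaled. It was 0.00289, 0.00374, 0.00418, 0.00537 and 0.005 in the chow replicates. At 8 weeks it was 0.00334 in replicate 3 and 0.00911 to 0.0193 in the other 7 libraries, and at 16 weeks it was 0.00951 to 0.0199. Apart from 8-week replicate 3, all CDA-HFD libraries thus lay above all chow libraries. The ratio of Hist1h1c to Hist1h2bc was 0.545 to 1.19 on chow, 0.465 in 8-week replicate 3, 1.48 to 2.26 in the other 8-week libraries and 1.54 to 2.61 at 16 weeks. A ratio shows that 2 genes changed unequally and does not tell which of them changed.

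**Figure D4:**
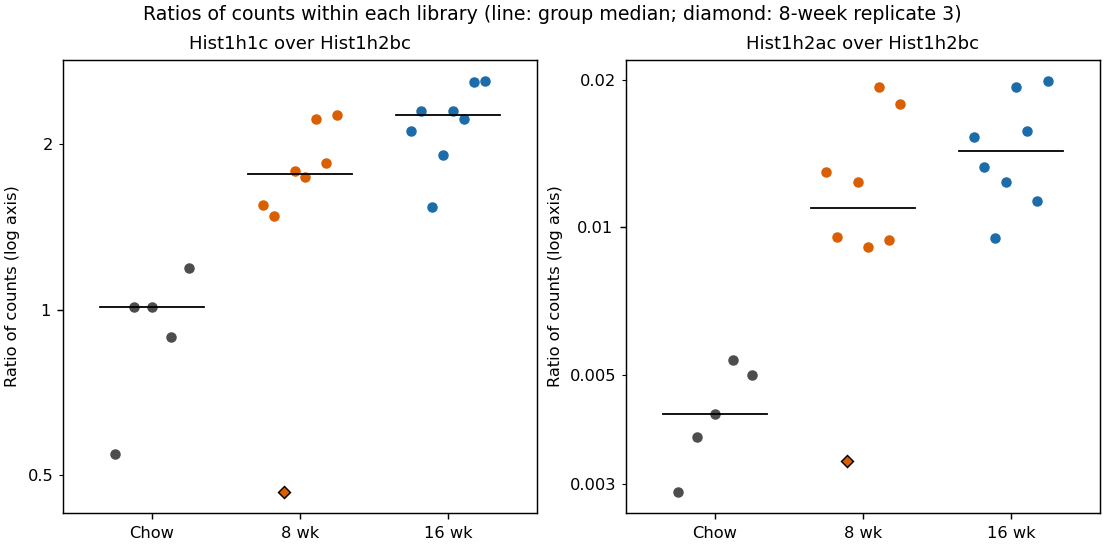
Ratio of counts in each library (vertical axis, logarithmic) of Hist1h1c over Hist1h2bc and of Hist1h2ac over Hist1h2bc, by group, with the group median as a line and 8-week replicate 3 as a diamond. All 16-week libraries lie above all chow libraries in both ratios, and 8-week replicate 3 lies at 0.465 and 0.00334.

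The library that stood apart also differed in some of the 9 listed RNAs that carry no poly(A) tail. Rn7sk, the RNA of the 7SK complex, was at 189 CPM in 8-week replicate 3 and at 0.56 to 3.18 CPM in the other libraries of that group. Rpph1, the RNA of ribonuclease P, was at 56.7 CPM there against at most 0.969 CPM in the rest of the group, and Rmrp, the RNA of ribonuclease MRP, at 42.8 against at most 0.36 CPM. On chow these RNAs reached at most 3.13, 1.05 and 0.184 CPM. The rest of the list lay under 1 CPM in all libraries. In 8-week replicate 3, Rny1 had 0.834 and Rny3 0.417 CPM, against at most 0.0 and 0.0254 CPM elsewhere. Terc had 0.0695 CPM there, against at most 0.0562 CPM elsewhere, and Rnu11, Rnu12 and Rnu73b had 0.0 CPM there. In the fit of all libraries Rpph1 was called higher at 8 weeks (log2 3.23, edgeR adjusted p = 0.0426), and without replicate 3 the difference was -0.73. From 8 to 16 weeks Rn7sk differed by -3.36 on the log2 scale (edgeR adjusted p = 0.0369), and by 0.65 without that library. The high level of Hist1h4h, whose annotated transcript ends near its stem-loop, was in the same library. The same library had the group's lowest Hist1h1c and its highest Hist1h2bc, Hist3h2a and Hist2h3c2 levels in CPM. Its scaling factor was 0.496, against 0.811 to 1.30 in the other libraries, and a low factor raises all CPM of a library. Scaled by total counts alone, its Hist1h1c was still the group's lowest. Its Hist1h2bc, Hist3h2a and Hist2h3c2 were then not the group's highest. The part of RNA without a poly(A) tail in these levels was not tested.

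**Figure D5:**
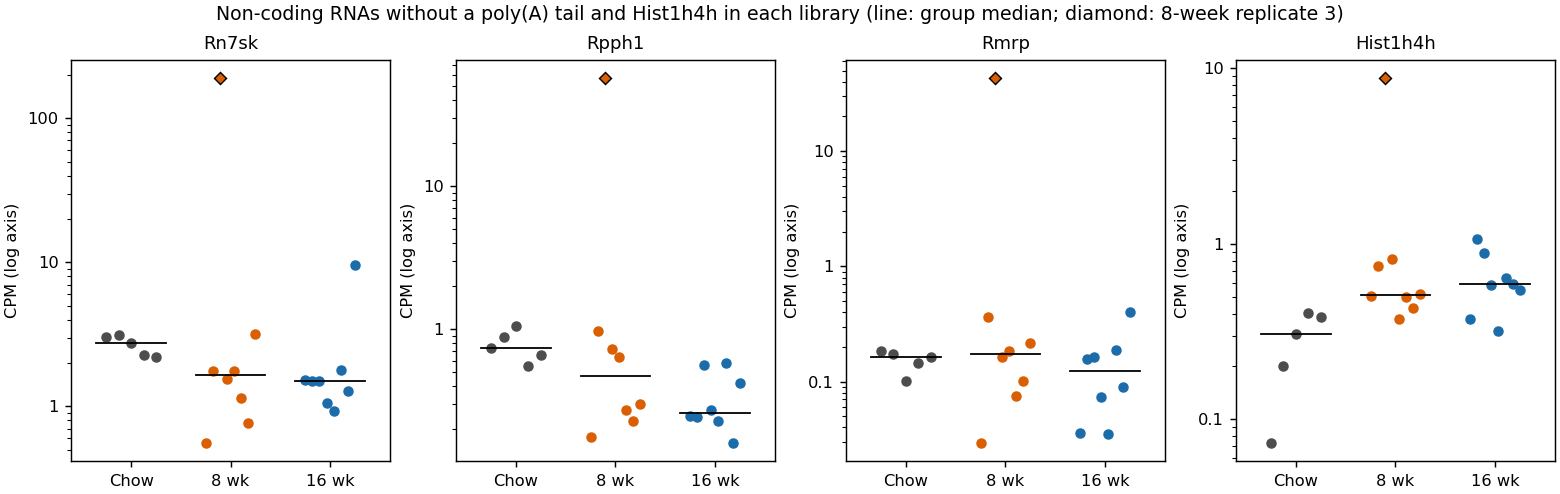
Level in CPM (vertical axis, logarithmic) in each library of Rn7sk, Rpph1, Rmrp and Hist1h4h, by group, with the group median as a line. The diamond is 8-week replicate 3, which lies above all other libraries in each panel, at 189, 56.7, 42.8 and 8.76 CPM.

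Genes that act on histone gene transcription were called both ways, and so were all genes tested. Of all genes tested 30.8% were higher and 20.5% lower at 8 weeks, and 29.4% and 22.5% at 16 weeks. Of the 11 listed for transcription, 3 were higher at 8 weeks (Ccna2, Ccne1 and E2f2) and 4 lower (Npat, Casp8ap2, Pou2f1 and Yy1). At 16 weeks the same 3 were higher, and Pou2f1 and Yy1 were lower. Npat, the coactivator that gathers at histone gene clusters, had 10.9 ± 0.635 CPM (SD, n = 5) on chow and a lower 6.37 ± 2.7 CPM (SD, n = 8) at 8 weeks (log2 -0.76, edgeR adjusted p = 0.0155), and was not called at 16 weeks (log2 -0.34). Under total counts alone the 8-week difference of Npat was -0.54, with no call (edgeR adjusted p = 0.187). Pou2f1, the octamer-binding factor of H2B promoters, was lower at both times (log2 -1.15 and -0.70, edgeR adjusted p = 0.00134 and 0.0313). Its 16-week call was lost in 7 of 30 alternatives, with a difference of -0.16 (edgeR adjusted p = 0.701) under total counts alone. Ccna2, the cyclin A of S phase, rose from 1.46 ± 0.393 to 11.7 ± 3.24 and 16.5 ± 6.17 CPM (log2 3.01 and 3.49, edgeR adjusted p = 4.75e-08 and 4.25e-09).

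Genes of histone mRNA 3′ end processing and decay were mostly not called. Of all genes tested 51.3% were called at 8 weeks and 51.9% at 16 weeks. Of the 18 listed for processing, the 3 Sm protein genes Snrpb, Snrpe and Snrpf were higher and Cpsf2 and Cstf2 lower at 8 weeks. The calls of Snrpe and Snrpf stood at the threshold (log2 0.60 and 0.70, edgeR adjusted p = 0.0493 and 0.0485) and were lost in 22 and 21 of 30 alternatives. At 16 weeks 0 were higher, and Cpsf2 and Ncbp1 were lower. Slbp had 6.75 ± 0.807 CPM (SD, n = 5) on chow and was not called at either time (log2 -0.33 and -0.11, edgeR adjusted p = 0.314 and 0.762). Cpsf2, a subunit of the cleavage complex, was lower at both times (log2 -0.56 and -0.50, edgeR adjusted p = 0.00899 and 0.0162), but under total counts alone the differences were -0.36 (edgeR adjusted p = 0.263) and 0.03. Among 19 genes of histone chaperones and nucleosome assembly, 6 were higher and 2 lower at 8 weeks, and 5 were higher and 2 lower at 16 weeks. The higher genes were near the share of all genes tested, 30.8% at 8 weeks and 29.4% at 16 weeks. Asf1b, which passes H3 and H4 to new DNA, rose at both times (log2 0.99 and 1.5, edgeR adjusted p = 0.0222 and 0.00112). The 8-week call of Asf1b was lost without chow replicate 4 or 5 (edgeR adjusted p = 0.0505 and 0.0545) and with the 2 groups alone (0.096).

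Most histone variant genes outside the clusters yield polyadenylated transcripts made throughout the cell cycle or outside S phase. Of 11 listed, 5 were higher at 8 weeks, 4 were higher at 16 weeks and 0 were lower. Of all genes tested 30.8% were higher at 8 weeks and 29.4% at 16 weeks. H3f3b, at 75.6 ± 4.81 CPM (SD, n = 5) on chow, rose to 113.0 ± 24.4 and 124.0 ± 19.2 CPM (log2 0.58 and 0.71, edgeR adjusted p = 0.00188 and 0.00024). H2afy2, a macroH2A gene, rose with log2 differences of 1.72 and 2.45 (edgeR adjusted p = 1.05e-06 and 6.52e-09), and Cenpa, the H3 variant of centromeres, with 1.83 and 1.64 (edgeR adjusted p = 1.45e-06 and 2.71e-06). H2afz, the gene of H2A.Z, had low mean levels of 0.325 CPM on chow, 0.872 CPM at 8 weeks and 0.542 CPM at 16 weeks. Its 8-week libraries ran from 0.265 CPM, within the chow range, to 2.43 CPM in replicate 3. H2afz was higher at 8 weeks (log2 1.37, edgeR adjusted p = 0.0121) and not called at 16 weeks (log2 0.74). Fitting 2 groups alone removed the first call (edgeR adjusted p = 0.0591) and gave one at 16 weeks (edgeR adjusted p = 0.00699). The 8-week call was lost in 1 of 29 alternatives. H1f0 was not called (log2 -0.02 and -0.17), and neither was H3f3a (log2 0.29 and 0.10).

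Of 24 genes of DNA replication and S phase, 16 were higher, 1 was lower and 7 were not called at each time, with a median log2 difference of 0.71 at 8 weeks and 0.63 at 16 weeks. The 1 that was lower was Tk1, a thymidine kinase gene (log2 -0.95 and -1.36, edgeR adjusted p = 0.00267 and 6.02e-05). Gins2, a subunit of the replicative helicase, rose with log2 differences of 1.99 and 2.53 (edgeR adjusted p = 9.34e-07 and 2.46e-08), and Pcna, the sliding clamp, with 0.81 and 0.73. All 12 genes of mitosis were higher at both times, with medians of 2.51 and 3.20. Of all genes tested 30.8% were higher at 8 weeks and 29.4% at 16 weeks. Mki67, a marker of dividing cells, had 3.6 ± 0.856 CPM (SD, n = 5) on chow, 13.1 ± 4.51 CPM (SD, n = 8) at 8 weeks and 21.5 ± 8.19 CPM (SD, n = 8) at 16 weeks. From 8 to 16 weeks 6 of the 12 genes of mitosis were called higher, against 10.6% of all genes tested. Of these, the call of Kif11 was lost in 13 of 30 alternatives and that of Mki67 in 7 of 30, both among them without 8-week replicates 3, 4 and 5 together (edgeR adjusted p = 0.0812 and 0.152). Whether the lists differ from the members was not tested.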

How the data were processed

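For 21 mouse liver libraries the authors deposited counts of reads per Ensembl gene ID, without any normalization. Per the labels, total RNA was purified with an RNeasy kit and libraries were made with a stranded total RNA kit. Per the submitters' processing notes, reads were placed on GRCm38. Which aligner, counter and gene annotation were used, and how long reads were, is not given in the sources used here. Each library's own counts were identical to the table of the series in 21 of 21 libraries, and GENCODE M21 gave a symbol for 52489 IDs (99.72%). The groups come from the labels, which name no batch, sex or pairing.

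The members, the gene lists and the tests were chosen with earlier results of these data known. Counts were fitted in R 4.3.3 with edgeR 4.0.16 (filterByExpr by group, TMM factors, glmQLFit and glmQLFTest), with 17104 genes holding 99.961% of the counts and all 21 libraries in 1 fit, and p-values were adjusted over all genes tested. CPM use TMM-adjusted library sizes. The procedure was tested on simulated counts. Alternatives were DESeq2 1.42.0 (size factors, Wald test), total counts alone, other filters, a fit of the 2 groups alone, scaling without the 20 most abundant genes, and libraries left out singly or together. Sequence features came from GENCODE M21 transcripts, with 50-base stretches compared on the transcript strand, and from RefSeq promoters of GRCm38.p6. Named genes were the 2 most abundant members of each class, the called members of at least 1 CPM with the largest changes, up to 2 called genes of each list and 9 panel genes; other genes were named after their values were seen. Precision at low levels is limited by counting: a member at 0.1 CPM has a few reads in a library.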

Additional observations from a re-analysis of the deposited data

Results flagged for a closer look

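Among the 54 groups of values checked, 9 had a library whose distance from its nearest neighbour was large against the range of the group. For normally distributed values, chance alone picks out about 1 group in 20 by this check. Whether these CPM are so distributed was not tested, and the groups share libraries, so the rate here is not known. Of the 9 flagged, 4 lie in 8-week replicate 3. There Hist1h4h had 8.76 CPM (nearest library 0.822), Rmrp 42.8 CPM (nearest 0.36), Rpph1 56.7 CPM (nearest 0.969) and Rn7sk 189 CPM (nearest 3.18). In 16-week replicate 8, Rn7sk had 9.55 CPM (nearest 1.78) and Rmrp 0.402 CPM (nearest 0.187). Single histone genes stood out in other libraries, namely Hist2h2be in 8-week replicate 6 with 5.6 CPM (nearest 4.33), Hist1h4i in 16-week replicate 2 with 2.91 CPM (nearest 1.88) and Hist1h2bh in 8-week replicate 2 with 0.498 CPM (nearest 0.254). The cause was not tested for any of them.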

How the results depend on the processing

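The 45 differences of the 15 tested members gave 1297 refits, of which 1249 stayed on the same side of the threshold, 29 lost the call, 17 gained one and 2 changed sign while losing or gaining a call. The sign differed in 42 of the refits, 1 of them of a difference called in the fit of all libraries. At 8 weeks 4 of 8 members tested were higher than on chow with a filter at a mean of 1 CPM. With only the 2 groups compared 5 of 11 members tested were higher. Without 8-week replicates 3, 4 and 5 together 1 member was lower. With each library left out in turn, 6 to 9 members were higher and 0 to 0 lower at 8 weeks (median 0.56 to 0.98), 5 to 7 higher and 1 to 1 lower at 16 weeks (median 0.56 to 0.95), and 0 to 0 higher and 0 to 1 lower from 8 to 16 weeks (median -0.30 to -0.04). Total counts alone moved the median of all genes from 0.16 to 0.28, from 0.03 to 0.56 and from 0.00 to 0.38 in the 3 comparisons. At 16 weeks it gave 11 members higher and 0 lower (median 1.21), and from 8 to 16 weeks 2 higher and 0 lower (median 0.21), with Hist1h2bc at 0.02 and Hist3h2a at 0.46; at 16 weeks against chow it turned Cpsf2 to 0.03 and Ncbp1 to 0.20. From 8 to 16 weeks 0 members were lower with no filter, with only the 2 groups compared and without 8-week replicates 3, 4 and 5 together. At 8 weeks against chow Rpph1 was -0.79 with DESeq2's Wald test, -0.73 without 8-week replicate 3, -1.0 without 8-week replicates 3, 4 and 5 and -0.62 without the 5 libraries highest in squamous epithelium transcripts, and Rn7sk was -0.83 with the Wald test. From 8 to 16 weeks Rn7sk was 0.65, 0.69 and 0.94 in the same 3 sets of libraries, and Chaf1b, a chromatin assembly factor gene, was 0.50 in the last. With 1 library left out at a time, Rpph1 at 8 weeks ran up to 3.42, and from 8 to 16 weeks Rn7sk ran down to -4.17. Beyond what the changed setting itself removes, the cause was not tested. No paired analysis was possible because the labels give no replicate numbers that the groups share.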
